A study of Mus musculus with 16 samples.

Results

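The 10 genes described here were the cyclin-dependent kinase (CDK) inhibitors Cdkn1a, Cdkn1b, Cdkn1c, Cdkn2a, Cdkn2b, Cdkn2c and Cdkn2d, together with Trp53 and the p53-linked genes Mdm2 and Ccng1. They were taken by symbol from a table of 47069 genes, and all 10 were found in it. The RNA came from macrophages grown for 7 days from bone marrow (BMMs) of C57BL/6 mice aged 8 to 10 weeks and primed with IFNγ at 10 ng/mL. Both groups were activated for 1 hr by LPS at 100 ng/mL plus immune complexes of ovalbumin and IgG (LPS/ICs). The GSI group received the γ-secretase inhibitor DAPT at 25 μM and the DMSO group the vehicle at 0.01%. The paper's methods place this exposure overnight ahead of activation, while its legends for other experiments give a shorter time. Exposure to DAPT may thus have been longer than the activation. DAPT blocks the cleavage that releases the intracellular part of Notch receptors, but γ-secretase has other substrates as well, and there was no genetic loss of Notch in these libraries. Each group had 2 replicates with 4 columns each. What separates these columns is not stated in the labels. They were assumed to be sequencing runs and were summed within each replicate to 1 library, which sets n at 2 per group. The labels do not say whether replicates were separate cultures or animals, so that p-values measure only the spread between these samples, which may be technical.

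The cell cycle is driven by CDKs bound to cyclins, and the inhibitors act on them as 2 families. The Cip/Kip proteins p21 (Cdkn1a), p27 (Cdkn1b) and p57 (Cdkn1c) bind cyclin-CDK complexes, above all those of CDK2. The INK4 proteins p16 (Cdkn2a), p15 (Cdkn2b), p18 (Cdkn2c) and p19 (Cdkn2d) bind CDK4 and CDK6. The Cdkn2a locus also encodes ARF from another first exon, which holds back Mdm2, the ubiquitin ligase that sends p53 to degradation. The transcription factor p53 (Trp53) activates Cdkn1a, Mdm2 and Ccng1, the gene of cyclin G1, so that Mdm2 forms a feedback loop with p53. In macrophages, p21 is known to accompany differentiation and growth arrest, and p27 to fall when CSF-1 drives division.

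The promoter windows are shown because they let the start regions of the p53-activated genes be set beside those of 2 inhibitors. RefSeq windows on GRCm38.p6 were found for 9 of the 10 genes, 12 windows in all, since Cdkn1a, Cdkn2a and Cdkn2c each had windows at 2 starts. Each window was the 250 bases before a start, printed 5′ to 3′ on the strand of the gene. Capitals mark matches to the motifs searched on both strands. These were the p53 decamer consensus (the repeated unit of a p53 site), the core of RBPJ, the DNA-binding partner of Notch (TGGGAA), an E2F site (TTTGGCGC or TTTCCCGC), the E-box (CACGTG) and the GC box (GGGCGG). The first 4 windows hold the p53 decamer, the window of Cdkn2c belongs to the inhibitor that fell most, and that of Cdkn2a lies before the start used by ARF.
Cdkn1a, chr17:29090729-29090978, plus strand: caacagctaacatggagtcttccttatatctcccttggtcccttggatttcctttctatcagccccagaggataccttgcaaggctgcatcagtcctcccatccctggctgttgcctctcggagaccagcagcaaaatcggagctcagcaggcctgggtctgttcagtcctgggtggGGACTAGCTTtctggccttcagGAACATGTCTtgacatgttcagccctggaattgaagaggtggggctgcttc
Trp53, chr11:69580109-69580358, plus strand: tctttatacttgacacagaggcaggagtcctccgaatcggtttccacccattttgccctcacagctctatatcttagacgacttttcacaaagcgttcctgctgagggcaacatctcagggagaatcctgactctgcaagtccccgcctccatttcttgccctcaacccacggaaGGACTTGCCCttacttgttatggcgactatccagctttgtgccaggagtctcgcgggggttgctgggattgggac
Mdm2, chr10:117710759-117711008, minus strand: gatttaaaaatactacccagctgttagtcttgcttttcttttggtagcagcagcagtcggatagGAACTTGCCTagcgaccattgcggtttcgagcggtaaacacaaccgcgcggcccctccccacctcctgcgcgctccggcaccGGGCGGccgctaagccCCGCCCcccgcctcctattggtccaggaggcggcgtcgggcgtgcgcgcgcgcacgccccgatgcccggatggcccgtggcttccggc
Ccng1, chr11:40755287-40755536, minus strand: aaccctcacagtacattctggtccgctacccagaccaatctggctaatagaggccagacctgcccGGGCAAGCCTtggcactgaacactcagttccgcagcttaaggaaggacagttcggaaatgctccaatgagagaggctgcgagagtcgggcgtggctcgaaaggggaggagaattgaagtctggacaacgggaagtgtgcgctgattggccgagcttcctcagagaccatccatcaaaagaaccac
Cdkn2c, chr4:109666757-109667006, minus strand: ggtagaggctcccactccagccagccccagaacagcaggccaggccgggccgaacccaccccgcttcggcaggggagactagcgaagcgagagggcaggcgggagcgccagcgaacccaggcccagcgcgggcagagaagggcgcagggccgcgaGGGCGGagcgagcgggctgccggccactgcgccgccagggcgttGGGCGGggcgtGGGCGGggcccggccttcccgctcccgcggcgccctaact
Cdkn2a, chr4:89294620-89294869, minus strand: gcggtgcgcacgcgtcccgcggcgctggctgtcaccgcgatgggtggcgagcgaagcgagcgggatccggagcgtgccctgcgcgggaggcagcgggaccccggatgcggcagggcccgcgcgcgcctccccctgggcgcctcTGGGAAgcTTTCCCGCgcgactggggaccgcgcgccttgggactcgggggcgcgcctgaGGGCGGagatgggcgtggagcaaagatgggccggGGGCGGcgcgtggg

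The p53 decamer was present in 5 of the 12 windows, against 7.13% of 32851 mouse promoter windows of the same length. It occurred in the windows of Cdkn1a, Mdm2, Ccng1, Trp53 and Cdkn2d, and the upstream window of Cdkn1a held it at 2 places, from -73 to -64 and from -51 to -42 counted back from the start. In Mdm2 it lay from -186 to -177 and in Ccng1 from -185 to -176. In the window of Cdkn2d it shared 2 bases with a GC box. The RBPJ core was found in 3 windows, those of Cdkn1a (downstream start), Cdkn2a (ARF start) and Cdkn2d, and in 21.6% of all windows. An E2F site was found in 1 window, that of ARF, where TTTCCCGC lay from -99 to -92 beside the RBPJ core from -107 to -102; 1.3% of all windows held such a site. GC boxes occurred in 6 windows against 32.7% of all, and the E-box in 0 against 6.02%. The GC content ran from 42.8% at the downstream start of Cdkn2c to 78.4% at the ARF start, with a median of 52.4% over all windows. A match describes letters in a window and shows no binding.

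The summed libraries held 42694655 and 56932059 counts for DMSO and 48483661 and 49511733 for GSI, and 3 counts, taken as the upper limit behind a count of 0, were 0.0529 to 0.0697 CPM (CPM being the usual scaling of counts to normalized library size). Counting limits do not cover PCR copies. Of 13211 genes tested with edgeR's quasi-likelihood test, 40.8% had a Benjamini-Hochberg adjusted p (FDR) under 0.05, 21.9% lower and 19.0% higher with GSI. The share was 31.1% among genes averaging under 10 CPM and 48.1% among the others. The 8 macrophage markers summed to between 12278 and 12485 CPM in DMSO and between 9489 and 10414 CPM in GSI, with 6 lower and 1 higher. Of the other cell types checked, dendritic cell markers summed to 5.25 and 5.01 CPM in DMSO and 4.03 and 3.69 CPM in GSI (1 of 2 tested lower), neutrophil markers to 0.581 to 1.29 CPM, B cell markers to 0.344 to 0.538 CPM and T and NK cell, erythroid and stromal markers to at most 0.209 CPM, while all 4 mast cell and basophil markers were at 0. The 6 proliferation markers (Mki67, Top2a, Birc5, Cdk1, Ccnb1 and Tyms) were all lower, at 382 to 395 CPM in DMSO and 218 to 231 CPM in GSI. In bulk RNA, fewer cells of a type and less RNA per cell cannot be told apart.

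All 10 genes passed the filter on low counts, and 8 of them changed with GSI, 5 lower and 3 higher. Of all tested genes, 40.8% were called, 21.9% lower and 19.0% higher. Cdkn2c, Cdkn1b, Ccng1, Mdm2 and Trp53 fell, and Cdkn1c, Cdkn2b and Cdkn2a rose. Cdkn1a had an FDR of 0.0663 and Cdkn2d of 0.754. The median log2 fold change of the 10 genes was -0.20, against 0.01 over all tested genes. The GSI and DMSO libraries did not overlap for 9 of the 10 genes, Cdkn2d being the exception, which held for 70.6% of all tested genes. No member reached the study's fold threshold, an absolute log2 fold change above 1.5, which 2.91% of tested genes passed together with the FDR. The 7 genes averaging at least 10 CPM included all 5 that fell, and the 3 under 10 CPM were those that rose. Of all tested genes under 10 CPM, 17.1% were lower and 14.0% higher. At 10 CPM or more, 25.4% were lower and 22.6% higher. DESeq2 called 7 of the members, 6 lower and 1 higher, and 4063 of 13422 tested genes. Without DMSO replicate 2, the log2 fold changes were 0.63 for Cdkn1c, 0.59 for Cdkn2b and -0.14 for Trp53. With all libraries they were 0.87, 0.80 and -0.22.

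**Figure D1:**
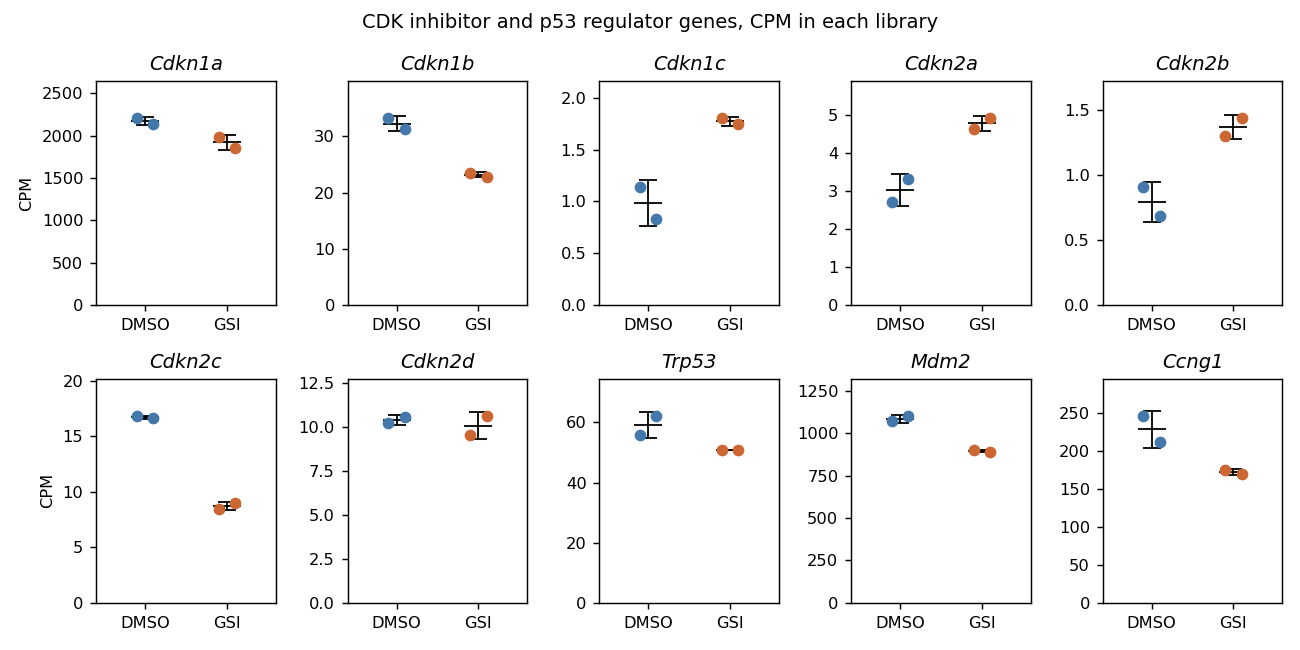
CPM of the 10 genes in each of the 4 libraries (points), with the mean and SD of each group (bar and whiskers, n = 2) on linear axes that start at 0. Cdkn2c separates most clearly, with 16.6 and 16.8 CPM in DMSO and 8.48 and 8.97 CPM in GSI, while the groups of Cdkn2d overlap.

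The Cip/Kip genes differed from each other in level and in direction. Cdkn1a (ENSMUSG00000023067; chr17:29090976-29100727, plus strand) gave 94792 and 121177 counts in DMSO and 95840 and 91828 in GSI, or 2203 and 2136 CPM against 1983 and 1860 CPM. Both GSI libraries lay below both DMSO libraries, by 153 CPM at the closest, but the GSI libraries themselves were 123 CPM apart. The group means were 2169 ± 47.6 and 1921 ± 87.1 CPM (SD, n = 2). Its log2 fold change was -0.18 (SE 0.0745, 95% interval -0.33 to -0.02), and with an FDR of 0.0663 by edgeR it did not pass the threshold. The FDR was 0.0273 with DESeq2 and 0.0315 without GSI replicate 1, both past it, and 0.275, 0.136 and 0.250 without DMSO replicate 1, DMSO replicate 2 and GSI replicate 2.

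Cdkn1b (ENSMUSG00000003031; chr6:134920401-134925513, plus strand) fell by 28.1%. Its 4 libraries gave 33.2 and 31.3 CPM in DMSO and 23.5 and 22.8 CPM in GSI. The groups were 7.80 CPM apart at their closest, and replicates differed by at most 1.86 CPM. The log2 fold change was -0.48 (SE 0.0793, 95% interval -0.64 to -0.31, FDR 6.75e-05). It passed under each alternative run, with values from -0.52 to -0.44.

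Cdkn1c (ENSMUSG00000037664; chr7:143458339-143461050, minus strand), an imprinted gene, had few counts, 49 and 47 in DMSO and 87 and 86 in GSI. These made 1.14 and 0.828 CPM against 1.80 and 1.74 CPM. On the log2 scale the fold change was 0.87 (SE 0.222, 95% interval 0.41 to 1.33, FDR 0.00368), the largest rise among the 10 genes. The call was lost with DESeq2 (FDR 0.0638) and without DMSO replicate 2, where the log2 fold change was 0.63 (FDR 0.0841).

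Cdkn1a and Cdkn1c have annotated exons of other genes on the opposite strand, AC167363.2 over 273 bases and Gm44732 over 625 bases, and neither of these was used here. The libraries differed in counts across from expressed exons. On 231 genes that share at least 100 exon bases with genes on the other strand averaging at least 1000 counts there, the lower quartile of counts per 1000 opposite counts was 13.3 and 11.3 for DMSO and 2.53 and 1.02 for GSI. The part of such counts in the values of Cdkn1a and Cdkn1c was not tested. The other 8 genes share no exon bases with an annotated gene on either strand.

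Of the 4 INK4 genes, 1 fell, 2 rose and Cdkn2d did not pass the test. Cdkn2c (ENSMUSG00000028551; chr4:109660876-109667189, minus strand) gave 724 and 944 counts in DMSO and 410 and 443 in GSI, or 16.8 and 16.6 CPM against 8.48 and 8.97 CPM. Every GSI library was far below every DMSO library, with replicates at most 0.489 CPM apart. The gene fell by 47.8%, a log2 fold change of -0.94 (SE 0.0945, 95% interval -1.14 to -0.74, FDR 1.21e-07). This was the largest change among the 10 genes and ranked 1001 by absolute size among the 13211 tested. Leaving out any 1 library gave values between -0.98 and -0.90.

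Cdkn2a and Cdkn2b lie next to each other on chromosome 4 and both rose. Cdkn2a (ENSMUSG00000044303; chr4:89274471-89294653, minus strand) had 117 and 188 counts in DMSO and 224 and 242 in GSI, or 2.72 and 3.31 CPM against 4.63 and 4.90 CPM. Its groups were 1.32 CPM apart, more than the 0.594 CPM between the DMSO replicates. The log2 fold change was 0.65 (SE 0.143, 95% interval 0.35 to 0.95, FDR 0.00111) and passed under each alternative, from 0.52 to 0.81. These counts are per gene, so the p16 and ARF transcripts could not be separated.

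Cdkn2b (ENSMUSG00000073802; chr4:89306299-89311039, minus strand) had 39 and 39 counts in DMSO and 63 and 71 in GSI. These made 0.906 and 0.687 CPM against 1.30 and 1.44 CPM. This was a log2 fold change of 0.80 (SE 0.243, 95% interval 0.29 to 1.31, FDR 0.0121). The call was lost with DESeq2 (FDR 0.141), without DMSO replicate 2 (log2 fold change 0.59, FDR 0.162) and without GSI replicate 2 (0.73, FDR 0.0521).

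Cdkn2d (ENSMUSG00000096472; chr9:21288410-21291407, minus strand) was measured at 10.2 and 10.6 CPM in DMSO and 9.54 and 10.6 CPM in GSI, and the groups overlapped. The log2 fold change was -0.05 (SE 0.101, FDR 0.754), and its 95% interval of -0.26 to 0.17 excludes a change of the size seen for Cdkn2c.

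**Figure D2:**
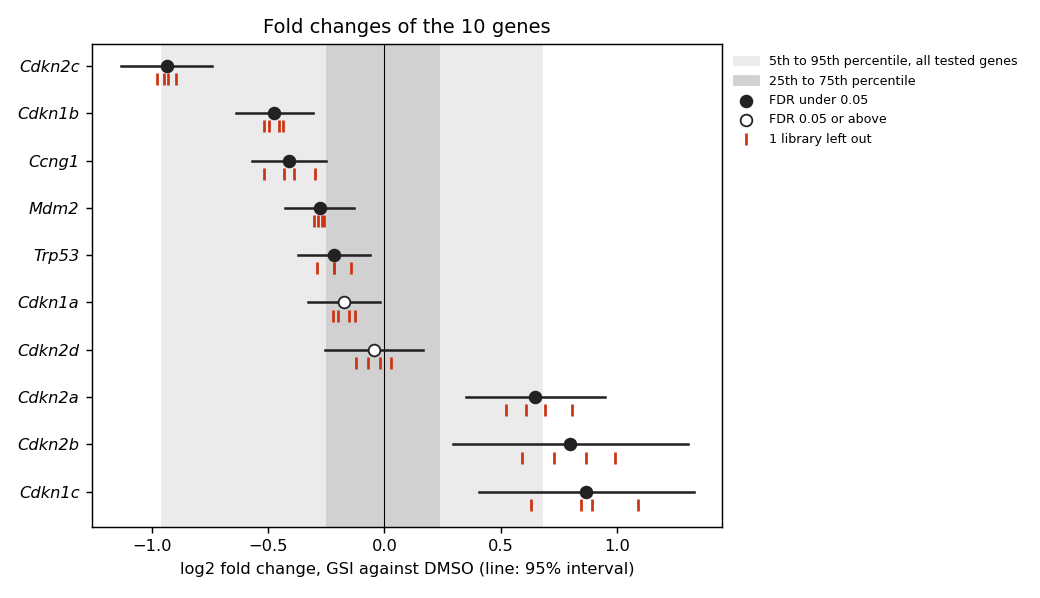
Log2 fold changes of the 10 genes, GSI against DMSO, with 95% intervals (lines); filled circles have an FDR under 0.05, red ticks are the values with 1 library left out, and grey bands span the 5th to 95th (-0.96 to 0.68) and the 25th to 75th (-0.25 to 0.24) percentiles of all tested genes. Cdkn2c at -0.94 and Cdkn1c at 0.87 mark the ends, and the intervals are widest for the 3 genes with the fewest counts.

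Compared per length, the composition of the INK4 mRNAs differed between the groups. In CPM per kb of exon the sum was 15.7 and 16.2 in DMSO and 14.1 and 15.3 in GSI. This sum takes in all Cdkn2a counts, whether from p16 or from ARF. Cdkn2c made up 39.9% and 38.2% of it with DMSO and 22.4% and 21.8% with GSI. Cdkn2a made up 14.8% and 17.4% in DMSO and 28.03% and 27.33% in GSI. Cdkn2b went from 4.15% and 3.05% to 6.65% and 6.76%, and Cdkn2d held 41.2% and 41.4% in DMSO and 42.9% and 44.1% in GSI. In each of these shares the 2 GSI libraries lay on 1 side of the 2 DMSO libraries. Groups also did not overlap for 70.6% of all tested genes. The shares of a library add up to the whole, so they do not vary independently, and Cdkn2d separated here though its CPM overlapped. With 2 libraries per group, an exact permutation test cannot go below 0.333 (2-sided), and none was run on the shares. Among the Cip/Kip mRNAs, Cdkn1a made up 98.8% to 98.9% of the summed level per length in all 4 libraries.

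**Figure D3:**
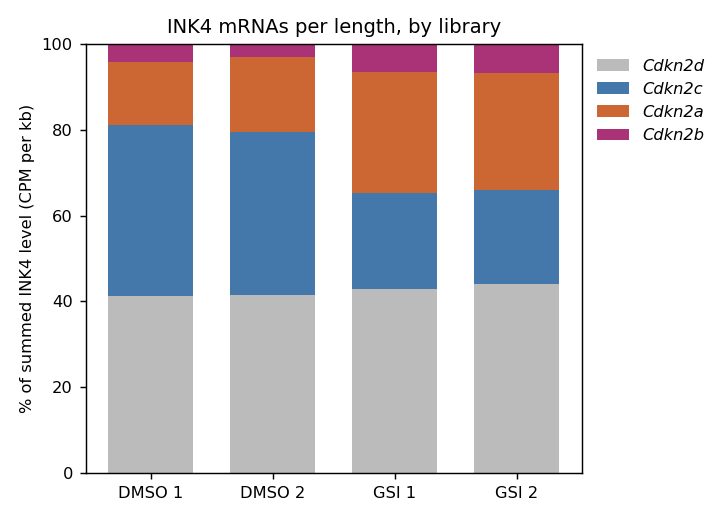
Share of each INK4 mRNA in the summed INK4 level (CPM per kb of exon, percent) in the 4 libraries. The Cdkn2a counts include any from ARF. The Cdkn2c share is 38.2% to 39.9% in DMSO and 21.8% to 22.4% in GSI, and that of Cdkn2a 14.8% to 17.4% and 27.33% to 28.03%.

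Trp53, Mdm2 and Ccng1 were all lower with GSI. Trp53 (ENSMUSG00000059552; chr11:69580359-69591873, plus strand) was at 56.0 and 62.1 CPM in DMSO and 50.7 and 50.9 CPM in GSI. The GSI libraries lay 5.10 CPM below the lower DMSO library, which is less than the 6.12 CPM between the DMSO replicates. The log2 fold change was -0.22 (SE 0.0750, 95% interval -0.37 to -0.06, FDR 0.0252). The call was lost without DMSO replicate 2 (log2 fold change -0.14, FDR 0.281), without GSI replicate 1 (-0.22, FDR 0.0520) and without GSI replicate 2 (-0.22, FDR 0.0501).

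Mdm2 (ENSMUSG00000020184; chr10:117688875-117710758, minus strand) had 46021 and 62468 counts in DMSO and 43450 and 43910 in GSI. These made 1070 and 1101 CPM against 899 and 889 CPM. The groups were 171 CPM apart, and replicates at most 31.4 CPM. Mdm2 fell by 17.6%, a log2 fold change of -0.28 (SE 0.0721, 95% interval -0.43 to -0.13, FDR 0.00395), and passed under each alternative.

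Ccng1 (ENSMUSG00000020326; chr11:40748552-40755311, minus strand) was at 246 and 211 CPM in DMSO and 174 and 169 CPM in GSI. The groups were 36.8 CPM apart and the DMSO replicates 34.6 CPM. Ccng1 fell by 24.9%, with a log2 fold change of -0.41 (SE 0.0769, 95% interval -0.57 to -0.25, FDR 0.000226). It passed under each alternative, between -0.52 and -0.30 when 1 library was left out. The ratio of Mdm2 to Trp53 per length was 15.2 and 14.1 in DMSO and 14.1 and 13.9 in GSI, and the DMSO libraries differed from each other by more than the groups did.

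The order of the levels per length was largely shared by the groups. In CPM per kb of exon the DMSO means were 611 for Cdkn1a, 214 for Mdm2 and 65.1 for Ccng1, then 14.6 for Trp53, 7.08 for Cdkn1b, 6.60 for Cdkn2d, 6.23 for Cdkn2c and 2.57 for Cdkn2a, and 0.573 for Cdkn2b and 0.482 for Cdkn1c. Neighbours in this order did not overlap between libraries, with the exception of Cdkn2b and Cdkn1c. With GSI the first 4 and the last 2 kept their places. Between them the order became Cdkn2d (6.40), Cdkn1b (5.09), Cdkn2a (4.07) and Cdkn2c (3.25), none of which overlapped with its neighbour. When the longest transcript was taken as the length, Cdkn1b and Cdkn2d swapped places in DMSO, and Cdkn1b (5.09) and Cdkn2a (5.33) swapped places in GSI.

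**Figure D4:**
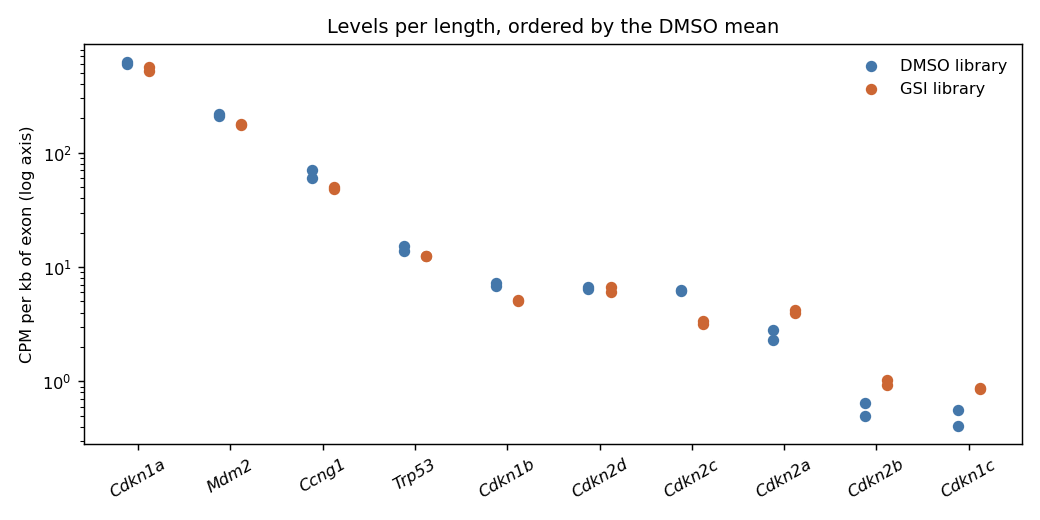
CPM per kb of exon (log axis) of the 10 genes in the 2 DMSO and the 2 GSI libraries, ordered by the DMSO mean. Cdkn1a leads at 611 in DMSO and 541 in GSI (means), and Cdkn2b and Cdkn1c are below 1 in DMSO.

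Of 30 other genes that p53 is known to activate, 29 were tested, 13 were lower and 4 higher (44.8% and 13.8%, against 21.9% and 19.0% of all tested genes), with a median log2 fold change of -0.22. Among those called and averaging at least 1 CPM, the largest fall was in Gtse1, a microtubule-binding protein that holds back p53 (-0.90, FDR 1.21e-06). Tnfrsf10b, a death receptor (-0.80, FDR 6.00e-05), and Sesn1, a stress-response inhibitor of mTORC1 (-0.75, FDR 2.39e-06), came next. Pidd1 (-0.72, FDR 0.00120) and Trp53inp1, a cofactor of p53 (-0.68, FDR 1.86e-06), followed. Gtse1 is also a gene of dividing cells. Plk2 rose, at 493 and 566 CPM in DMSO and 746 and 808 CPM in GSI (0.55, FDR 1.32e-05). The pro-apoptotic Bax had a log2 fold change of 0.09 (FDR 0.344; 0.03 to 0.15 with 1 library left out), Tigar of 0.09 (FDR 0.521) and Fbxw7 of 0.11 (FDR 0.336). Direction therefore differed within the list, and Perp, at 0 to 2 counts, was not tested.

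Of 26 genes that act on p53 or belong to its family, 24 were tested, 9 were lower and 2 higher (37.5% and 8.33%, against 21.9% and 19.0% of all tested genes), with a median of -0.15. In either direction 45.8% were called, near the 40.8% of all tested genes. The number higher was 1 without DMSO replicate 1, DMSO replicate 2 or GSI replicate 1, and 0 among genes without opposite-strand exons. Among the kinase genes, Chek1 (-0.81, FDR 0.00108), Hipk2 (-0.79, FDR 7.00e-06), Atm (-0.72, FDR 7.69e-07) and Prkdc (-0.43, FDR 0.00185) fell, while Chek2 was at -0.24 (FDR 0.0732) and Atr at -0.11 (FDR 0.357). Chek2 passed without DMSO replicate 2 (-0.36, FDR 0.0233) or GSI replicate 1 (-0.32, FDR 0.0256), and was at -0.12 (FDR 0.504) without DMSO replicate 1 and -0.16 (FDR 0.315) without GSI replicate 2. The acetyltransferase gene Kat2b (-0.36, FDR 0.000986) and the phosphatase gene Ppm1d (-0.43, FDR 0.00388) were also lower, and the call of Ppm1d was lost without DMSO replicate 1 (-0.32, FDR 0.0501). Mdm4, the partner of Mdm2 in restraining p53, was at 58.2 and 66.9 CPM in DMSO and 53.1 and 55.4 CPM in GSI (-0.21, FDR 0.0402). Its call was lost with DESeq2 (FDR 0.0715), without DMSO replicate 2 (-0.11, FDR 0.446) and without GSI replicate 1 (-0.18, FDR 0.120). Npm1, Rpl5 and Rchy1 had log2 fold changes of 0.02, -0.04 and 0.04 with FDR of 0.842, 0.691 and 0.716. The family members Trp63 and Trp73 were at 0 to 2 counts and were not tested, which at this depth allows up to 0.0529 to 0.0697 CPM for a count of 0. Mdm4 and Ppm1d stood in both p53 lists.

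Of 38 genes that set the transcription or turnover of CDK inhibitors, 37 were tested, 15 were lower and 3 higher (40.5% and 8.11%, against 21.9% and 19.0% of all tested genes), with a median of -0.12. In either direction 48.6% were called, against 40.8% of all tested genes and 48.1% of those averaging at least 10 CPM. Id1, which opposes E proteins and Ets factors at inhibitor genes, was at 10.4 and 9.98 CPM in DMSO and 2.54 and 1.76 CPM in GSI (-2.24, FDR 2.58e-10). Ets1 (-1.42, FDR 4.19e-07), the Cdkn1a and Cdkn2b repressor Myc (-1.37, FDR 1.09e-10) and its antagonist Mxi1 (-1.24, FDR 2.58e-10) fell next. Myc was at 44.6 and 50.02 CPM in DMSO and 18.2 and 18.4 CPM in GSI. Dtl, which targets p21 for degradation in S phase (-0.996, FDR 1.15e-05), and Smad3, an effector of TGF-β (-0.73, FDR 1.13e-05), were lower too. Skp2, which targets p27, had a log2 fold change of -0.29 (FDR 0.114), which was -0.16 without DMSO replicate 1 and -0.43 without DMSO replicate 2. The change was 0.01 for Rbpj (FDR 0.924), -0.01 for Pcna (FDR 0.938) and -0.02 for Klf6 (FDR 0.854). Hes1, a Notch target that represses Cdkn1b, was at 0.0207 to 0.116 CPM, with libraries of both groups at both ends, and was not tested.

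Of 15 cyclins, CDKs and RB family genes, 11 were lower and 2 higher (73.3% and 13.3%, against 21.9% and 19.0% of all tested genes), with a median of -0.48. Ccne2 (-1.65, FDR 1.47e-07), Ccnb2 (-1.55, FDR 2.49e-10), Ccna2 (-1.37, FDR 5.42e-10), Ccnb1 (-0.88, FDR 6.16e-07) and Cdk1 (-0.83, FDR 1.32e-07) fell most. Ccne1, the other cyclin E gene, rose, from 12.5 and 11.8 CPM to 23.5 and 20.5 CPM (0.86, FDR 3.72e-07). Among the CDKs that INK4 proteins bind, Cdk6 was at -0.03 (FDR 0.783) and Cdk4 at 0.20 (FDR 0.0269). The call of Cdk4 was lost when any 1 library was left out, at FDR from 0.0565 to 0.123, with its log2 fold change still at 0.20. Of the genes named from the lists, Ccne2, Ccna2, Cdk4, Cdk6, Mxi1, Tigar, Rpl5 and Rchy1 share exon bases with a gene on the other strand, as do Atr, Cdk2 and the untested Trp73, and the part of such counts in their values was not tested. Rbl1 had a log2 fold change of -0.16 (FDR 0.114), which was -0.26 (FDR 0.0335) without DMSO replicate 2 and -0.05 (FDR 0.723) without DMSO replicate 1. Cdk1 and Ccnb1 are also among the proliferation markers, whose sum was lower in both GSI libraries, and the part of fewer dividing cells in the changes of the inhibitors was not tested.

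**Figure D5:**
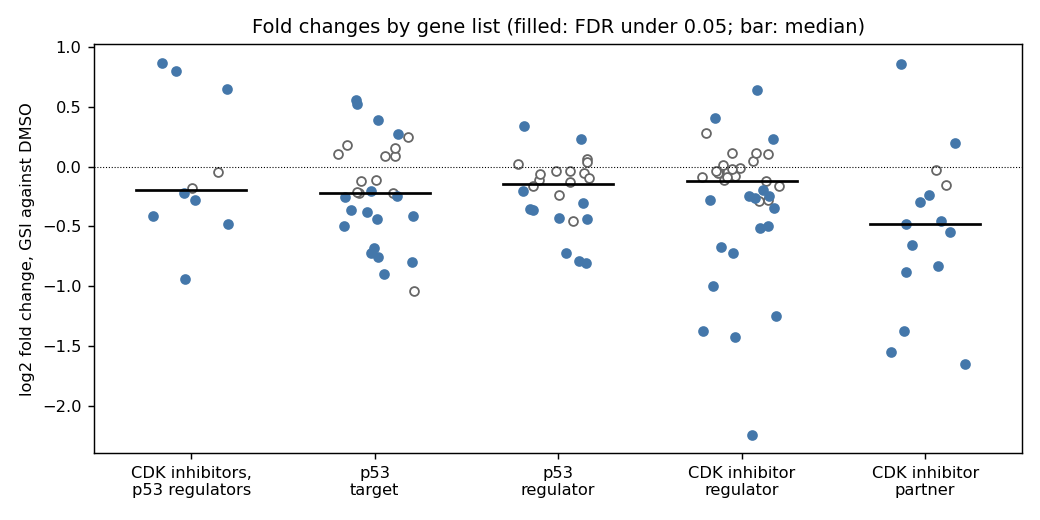
Log2 fold changes, GSI against DMSO, of the 10 genes and of 4 gene lists (filled circles, FDR under 0.05; bars, medians of -0.20, -0.22, -0.15, -0.12 and -0.48 from left to right). Most filled circles lie below 0 in every column, and Plk2 and Ccne1 are the highest points of their lists.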

How the data were processed

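RNA-seq of LPS/IC-activated BMMs treated with GSI or DMSO was analysed (2 replicates per group, 16 columns). The authors prepared libraries with a TruSeq stranded mRNA kit, sequenced them on a NextSeq instrument and removed adapters by Trimmomatic. Reads were aligned by STAR and counted by HTSeq on mm10 (also called GRCm38). The submitters' processing notes give STAR 2.5.0a. The HTSeq mode and strand setting are not given in the sources used here. The deposited values are raw, unnormalized counts for each gene and run.

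The 4 runs of a replicate were summed. Over 40 pairs of member gene and library, 1 pair differed between runs at a chi-square p under 0.05. Counts were tested with edgeR 4.0.16 in R 4.3.3 (filterByExpr, TMM, glmQLFit and glmQLFTest, group as the only factor), with Benjamini-Hochberg adjustment over 13211 genes. CPM used the TMM-adjusted library sizes. SEs were the absolute log2 fold change over √F. Positions and exon lengths came from GENCODE M21, which held 98.9% of the gene IDs. Promoter windows came from RefSeq on GRCm38.p6.

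The genes named were the 10 members, up to 6 genes with the largest changes (FDR under 0.05, averaging at least 1 CPM) and up to 3 with the smallest (averaging at least 10 CPM) from each list, and Mdm4, Skp2, Hes1, Rbpj and Myc. Perp, Trp63, Trp73, Chek2 and Atr were named after their values were seen. Members and lists were chosen with earlier results of these data known. Alternatives were DESeq2 1.42.0, no filter, at least 10 counts in every library, RLE factors, library sizes without factors, a replicate block, 16 runs as separate samples, genes without opposite-strand exons, both thresholds of the study, the longest transcript as length, and leaving out each library. The code of the test was checked on simulated counts, which cannot show how the real replicates vary.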

Additional observations from a re-analysis of the deposited data

How the results depend on the processing

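Of 118 values of the 10 genes under the alternatives, 105 kept their direction and side of the threshold, 8 lost and 4 gained the call, and 1 changed direction. Cdkn1b, Cdkn2a, Cdkn2c, Mdm2 and Ccng1 had an FDR under 0.05 in every alternative they were tested in, though none passed the study's fold threshold. With DESeq2, the log2 fold changes were 0.85 for Cdkn1c (FDR 0.0638) and 0.79 for Cdkn2b (FDR 0.141), no longer called, and -0.18 for Cdkn1a (FDR 0.0273), now called; the causes were not tested. The 16 runs as separate samples also called Cdkn1a (-0.17, FDR 5.88e-08), and these runs, as they were taken to be, are not independent samples. With 1 library left out, a group's lone library is assumed to vary like the other group's. The ranges were then -0.22 to -0.13 for Cdkn1a, 0.63 to 1.09 for Cdkn1c and 0.59 to 0.99 for Cdkn2b. For Cdkn2d the range was -0.12 to 0.029, and for Trp53 -0.29 to -0.14. Cdkn2d changed direction without GSI replicate 1. Of 482 values of the 41 listed genes named, 451 kept direction and call and 13 changed direction. These came from 9 genes with small changes, whose ranges were -0.085 to 0.25 for Tigar, -0.0056 to 0.21 for Fbxw7, -0.047 to 0.13 for Rchy1, -0.11 to 0.15 for Npm1, -0.049 to 0.029 for Pcna, -0.099 to 0.055 for Klf6, -0.049 to 0.068 for Rbpj, -0.25 to 0.015 for Atr and -0.065 to 0.0046 for Cdk6. Genes without opposite-strand exons gave 3571 calls of 8976 genes in place of 5392 of 13211, and 4 of 5 partner genes in place of 13 of 15, since fewer genes were tested. Cdkn1a and Cdkn1c gave no value there. With both thresholds 385 genes passed, and 0 of the 10.

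The replicate numbers are shared by the groups, but nothing in the labels ties the numbers to a culture or day. Replicate differences of DMSO and GSI correlated at 0.155 over 13211 genes, from 2 pairs. With the replicate block, 6444 genes and 9 of the 10 were called, Cdkn1a (-0.18, FDR 0.0258) being gained, as were the listed genes Rbl1 (-0.15, FDR 0.0445) and Chek2 (-0.24, FDR 0.0170). The 3 genes that rose had few counts, 39 to 242 per library, and the part of depth in their values was not tested.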

Other observations

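The summed inhibitor mRNAs were also set against kinases that the inhibitors bind. The INK4 sum holds all Cdkn2a counts, including any from ARF, which acts on Mdm2. An unknown part of this sum may therefore not be mRNA of a kinase inhibitor. The summed level of Cdk4 and Cdk6 per length was 1.504 and 1.448 times the summed INK4 level for DMSO and 1.873 and 1.732 times for GSI. The summed Cip/Kip level was 172 and 173 times that of Cdk2 in DMSO and 192 and 182 times in GSI. Cdk2 had a log2 fold change of -0.29 (FDR 0.00788) and Cdkn1a of -0.18 (FDR 0.0663), and their difference was not tested. Without DMSO replicate 1 the FDR of Cdk2 was 0.0544. In both ratios the GSI libraries were above the DMSO libraries. Groups without overlap were common, at 70.6% of all tested genes. These are mRNA ratios with no test, and Cdk2 was chosen after its values were seen.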
